A study of Homo sapiens with 5 samples.

Results

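The genes described here are the peroxiredoxins *PRDX1* to *PRDX6*, thioredoxin (*TXN*), cytosolic thioredoxin reductase (*TXNRD1*) and the superoxide dismutases *SOD1* and *SOD2*, chosen by name. Of these 10 genes, 9 had a row in the table of 27328 Ensembl genes, and all 9 passed the filter on low counts that left 14391 genes for testing. The annotated identifier of *SOD2* had no row, and *SOD2* was not analysed here. Levels were measured in TF-1, a human acute myeloid leukemia (AML) cell line that grows as factor-dependent CD34+ progenitor-like cells. The sgCtrl group held 2 libraries (sgCtrl_1 and sgCtrl_2), whose cells carried a control sgRNA against renilla luciferase, and the sgMTSS1 group held 3 libraries (sgMTSS1_1, sgMTSS1_2 and sgMTSS1_3), each made with its own sgRNA against *MTSS1*, a membrane-binding adaptor of the actin cytoskeleton. Every library came from a pool of 4 single-cell clones, all carried the same Cas9 and GFP vector, and none was treated with a drug. Since replicates are pools of clones, the effect of an sgRNA cannot be told apart from that of its 4 clones. A further sgCtrl pool and the sgMTSS1_4 pool, which the authors excluded after an outlier test, were not analysed here.

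Superoxide made by respiration and by NADPH oxidases is turned into hydrogen peroxide by superoxide dismutases, of which *SOD1* is the copper and zinc enzyme of the cytosol and *SOD2* the manganese enzyme of mitochondria. Peroxiredoxins reduce hydrogen peroxide with a reactive cysteine, and most of them are then recycled by thioredoxin, which thioredoxin reductase restores with electrons from NADPH. In the erythroid lineage, to which TF-1 is related, *PRDX2* is known as one of the most abundant proteins of the mature red cell, where it protects hemoglobin from oxidation.

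Total counts were 2849979 and 3408827 in the sgCtrl libraries and between 5442639 and 8854899 in the sgMTSS1 libraries, so that depth and group cannot be told apart. Values are given as CPM (counts scaled to a common library total) after correction by TMM factors, and 3 counts, the smallest level taken as shown, correspond to between 0.389 and 0.938 CPM. *MTSS1* mRNA, at 204 and 87.9 CPM in sgCtrl_1 and sgCtrl_2 and at 104, 139 and 49.9 CPM in sgMTSS1_1, sgMTSS1_2 and sgMTSS1_3, overlapped between groups (log2-fold change −0.58 ± 0.47 (SE), adjusted p = 0.494), so the mRNA level does not check the labels of a knockout made in the genome. The study's methods state that knockout of the pooled sgMTSS1 clones was established by immunoblot. All 12 progenitor and erythroid markers of TF-1 cells were detected and tested, and none passed by edgeR, DESeq2 or limma-voom. At an unadjusted p under 0.05 by edgeR, 1 of 12 passed, against 23.3% of all tested genes. The 12 markers summed to 1235 to 1749 CPM in sgCtrl and 1092 to 1431 CPM in sgMTSS1. Lymphoid markers (4 of 6 with a row, *CD3E* and *MS4A1* without one) summed to 10.005 to 14.3 CPM in sgCtrl and 5.06 to 11.0 CPM in sgMTSS1. Of the 3 lymphoid markers tested, none passed by edgeR or limma-voom and 1 was called by DESeq2. *CD79A* was counted 20 and 8 times in sgCtrl and 4, 5 and 4 times in sgMTSS1 (log2-fold change −2.59, edgeR adjusted p = 0.0506). Stromal and epithelial markers (6 of 8 with a row) summed to 210 to 252 CPM and 347 to 397 CPM, mostly from *PECAM1* and *KRT18*, while *COL1A1*, *COL1A2* and *EPCAM* had at most 4 counts in any library. The part of these marker sums in the results was not tested. In RNA from whole pools, fewer cells that express a gene and less of its mRNA per cell cannot be told apart.

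None of the 9 redox genes was differentially expressed between sgMTSS1 and sgCtrl by edgeR's quasi-likelihood test, taking a Benjamini-Hochberg adjusted p under 0.05 together with a log2-fold change beyond 1 in either direction as the threshold. By the same rule 5.18% of all tested genes were called. At an unadjusted p under 0.05, 2 of the 9 passed (*PRDX2* and *PRDX3*), against 23.3% of all tested genes. DESeq2 called 1 of the 9 (*PRDX2*, adjusted p = 0.047) and 9.43% of all genes, and limma-voom called 0 of the 9 and 4.41% of all genes. With no filter on low counts 2 of the 9 were called (*PRDX2* and *PRDX3*), as were 5.03% of 27328 genes, and a fit with the pool number as a block, a pairing that no source gives, also called 2 (*PRDX2* and *PRDX3*), with 7.6% of all tested genes. Fold changes were positive for 6 genes and negative for 3, with a median log2-fold change of 0.47, beside −0.03 over all tested genes. All 3 sgMTSS1 libraries lay above both sgCtrl libraries for 3 of the 9 (*PRDX2*, *PRDX3* and *PRDX6*) and below them for none, against 22.2% and 19.2% of all tested genes.

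**Figure D1:**
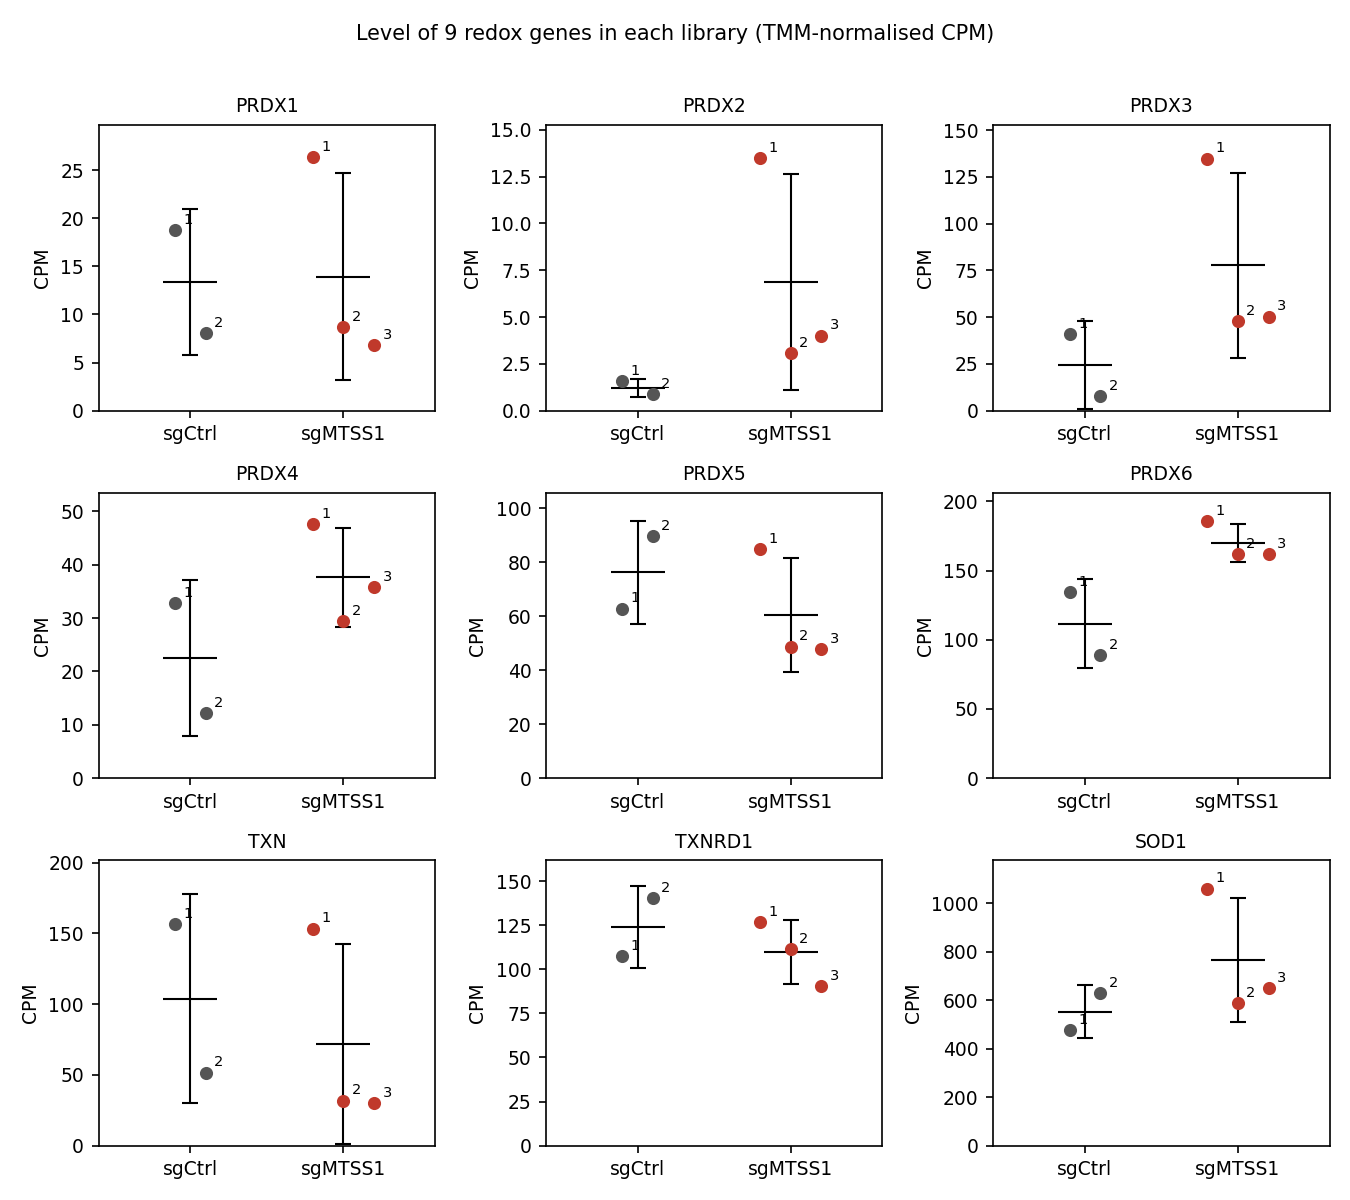
Level of each redox gene in every library, in CPM on a linear axis from 0, with a point for each sgCtrl or sgMTSS1 library (numbered by pool) and bars for the group mean and SD. The sgMTSS1 points lie above both sgCtrl points for *PRDX2*, *PRDX3* and *PRDX6* and overlap with them for the other 6 genes.

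*PRDX2* had the largest fold change of the group. It was counted 5 and 3 times in sgCtrl_1 and sgCtrl_2 (1.56 and 0.894 CPM) and 104, 17 and 23 times in sgMTSS1_1, sgMTSS1_2 and sgMTSS1_3 (13.5, 3.07 and 4.00 CPM). Every sgMTSS1 library was above both sgCtrl libraries, and sgMTSS1_1 stood well above the other knockout pools. Mean levels were 1.23 ± 0.473 CPM (SD, n = 2) in sgCtrl and 6.85 ± 5.77 CPM (SD, n = 3) in sgMTSS1. The log2-fold change was 2.48 ± 0.83 (SE, 95% interval 0.62 to 4.35) and did not pass edgeR's test after adjustment (adjusted p = 0.113). Counts in sgCtrl were at or near the limit of detection. Exact Poisson 95% intervals, which cover counting error only, reached from 0.184 to 3.65 CPM over both sgCtrl libraries, from 1.79 to 4.91 CPM in sgMTSS1_2, from 2.54 to 6.004 CPM in sgMTSS1_3 and from 11.0 to 16.3 CPM in sgMTSS1_1, so only the interval of sgMTSS1_1 was clear of both sgCtrl intervals. Summed over libraries, 144 counts in sgMTSS1 stood against 8 in sgCtrl, a depth-corrected ratio of 6.21 (exact interval 3.07 to 14.7 for counting error alone). Without sgMTSS1_1 the log2-fold change was 1.50 (adjusted p = 0.256).

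*PRDX3*, the peroxiredoxin of the mitochondrial matrix, was the other gene with an unadjusted p under 0.05. Its level was 41.0 and 7.75 CPM in sgCtrl_1 and sgCtrl_2 and 135, 48.0 and 50.3 CPM in sgMTSS1_1, sgMTSS1_2 and sgMTSS1_3. The knockout libraries were all above the controls, but sgMTSS1_2 and sgMTSS1_3 exceeded sgCtrl_1 by little, and the controls differed from each other by 5.29-fold, more than for any other of the 9 genes and against a median of 1.54-fold over all tested genes. Mean levels were 24.4 ± 23.5 CPM (SD, n = 2) and 77.7 ± 49.4 CPM (SD, n = 3). The log2-fold change was 1.68 ± 0.69 (SE, 95% interval 0.14 to 3.21, adjusted p = 0.180). Whether it passed depended on the library, filter and model. It was called with no filter (log2-fold change 1.82, adjusted p = 0.0418) and with the pool number as a block (2.14, adjusted p = 0.000795). Without sgCtrl_1 the log2-fold change was 3.34 and the adjusted p 0.0308, with 8.73% of 15458 tested genes called in the same fit. Without sgCtrl_2 the log2-fold change was 0.95 (adjusted p = 0.353) and without sgMTSS1_1 1.01 (adjusted p = 0.474).

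*PRDX5*, which is found in mitochondria, peroxisomes and the cytosol, was higher in sgCtrl_2 (89.7 CPM) than in sgCtrl_1 (62.8 CPM) and stood at 85.0, 48.7 and 47.8 CPM in sgMTSS1_1, sgMTSS1_2 and sgMTSS1_3. The groups overlapped, since sgMTSS1_1 lay between the controls and the other knockout pools below both. *PRDX5* was the only peroxiredoxin with a negative fold change (log2 −0.33 ± 0.35 (SE), 95% interval −1.12 to 0.46, adjusted p = 0.618).

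*PRDX1*, an abundant cytosolic and nuclear peroxiredoxin and a known target gene of the transcription factor NRF2, gave 18.8 and 8.05 CPM in sgCtrl and 26.3, 8.67 and 6.79 CPM in sgMTSS1. The highest and the lowest value both came from knockout pools. Its log2-fold change was 0.07 ± 0.61 (SE, 95% interval −1.30 to 1.44, adjusted p = 0.961) and turned negative with library totals alone (−0.15), with upper-quartile factors (−0.02), with limma-voom (−0.04), without sgCtrl_2 (−0.39) and without sgMTSS1_1 (−0.80), so no direction can be given for *PRDX1*.

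*PRDX6*, which has a single active-site cysteine and is recycled with glutathione instead of thioredoxin, showed the smallest differences between knockout pools. It was at 134 and 88.8 CPM in sgCtrl_1 and sgCtrl_2 and at 186, 162 and 162 CPM in the sgMTSS1 libraries. All knockout pools were above both controls, but sgMTSS1_2 and sgMTSS1_3 lay nearer to sgCtrl_1 than the controls lay to each other. Mean levels were 112 ± 32.3 CPM (SD, n = 2) and 170.0 ± 13.8 CPM (SD, n = 3). The log2-fold change of 0.61 ± 0.31 (SE, 95% interval −0.08 to 1.30) did not pass the test (adjusted p = 0.273).

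*PRDX4*, the peroxiredoxin of the endoplasmic reticulum, was at 32.8 and 12.2 CPM in sgCtrl and at 47.6, 29.4 and 35.8 CPM in sgMTSS1. Only sgMTSS1_2 lay below the higher control. The log2-fold change was 0.74 ± 0.44 (SE, 95% interval −0.24 to 1.72, adjusted p = 0.342), against 1.64 without sgCtrl_1 (adjusted p = 0.0465) and 0.23 without sgCtrl_2 (adjusted p = 0.749).

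*TXN*, the electron donor of most peroxiredoxins and of ribonucleotide reductase, varied more within the groups than between them. It was at 156 and 51.6 CPM in sgCtrl_1 and sgCtrl_2 and at 153, 31.8 and 29.9 CPM in sgMTSS1_1, sgMTSS1_2 and sgMTSS1_3. Both sgCtrl_1 and sgMTSS1_1 were high. *TXN* was 3.03-fold higher in sgCtrl_1 than in sgCtrl_2 and 4.97-fold higher in sgMTSS1_1 than in the mean of the other knockout pools. The means of 104 ± 74.1 CPM (SD, n = 2) and 71.7 ± 70.7 CPM (SD, n = 3) gave a log2-fold change of −0.53 ± 0.71 (SE, 95% interval −2.12 to 1.05, adjusted p = 0.699). It was 0.49 without sgCtrl_1 and −1.76 without sgMTSS1_1, so that a single pool decided its sign.

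*TXNRD1*, the selenoprotein that reduces thioredoxin, was among the steadiest of the 9 genes, at 108 and 140.4 CPM in sgCtrl and 127, 111 and 90.6 CPM in sgMTSS1. Its groups overlapped and the log2-fold change was −0.18 ± 0.30 (SE, 95% interval −0.84 to 0.49, adjusted p = 0.766), or 0.06 without sgCtrl_2. The interval excludes a doubling and holds a fall to somewhat over 0.5 of the control level.

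*SOD1* was at 477 and 631 CPM in sgCtrl_1 and sgCtrl_2 and at 1061, 588 and 651 CPM in sgMTSS1_1, sgMTSS1_2 and sgMTSS1_3. The groups overlapped, with sgMTSS1_1 alone clearly above the other 4 libraries. Mean levels were 554 ± 109 CPM (SD, n = 2) and 766 ± 257 CPM (SD, n = 3), and the log2-fold change was 0.47 ± 0.37 (SE, 95% interval −0.37 to 1.31, adjusted p = 0.489).

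**Figure D2:**
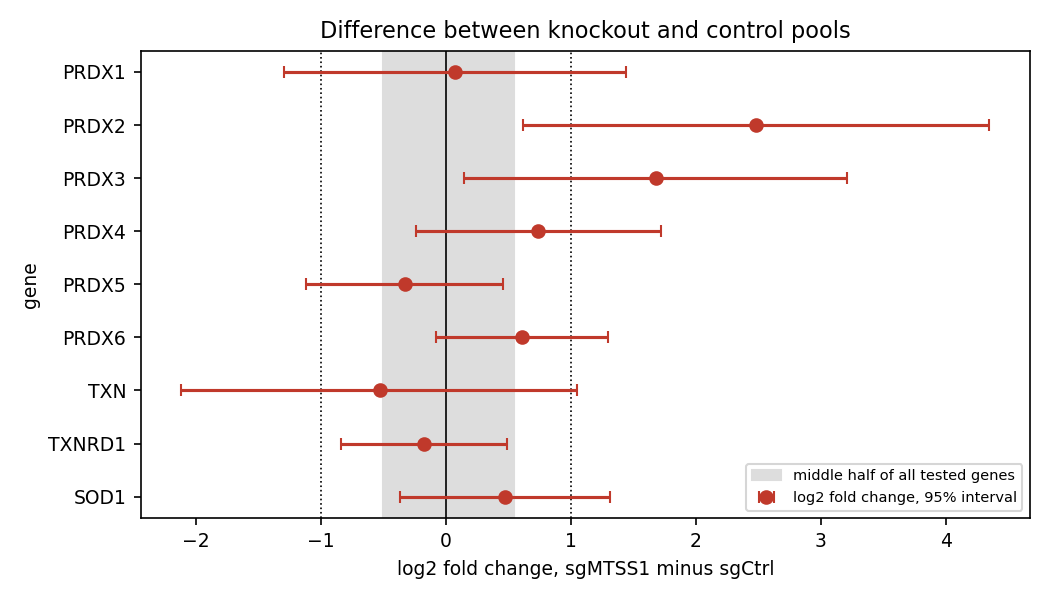
Log2-fold change of each redox gene between sgMTSS1 and sgCtrl with its 95% interval. Only the intervals of *PRDX2* and *PRDX3* lie wholly above 0, and neither gene passed the test after adjustment.

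The 9 genes shared a higher value in sgMTSS1_1 than in the other knockout pools, though not always than in the controls. That pool was the highest of the 3 knockout pools for all 9, against 38.2% of all tested genes, and the highest of all 5 libraries for 6 of them (*PRDX1*, *PRDX2*, *PRDX3*, *PRDX4*, *PRDX6* and *SOD1*), against 25.0% of all tested genes. The ratio of sgMTSS1_1 to the mean of the other knockout pools ran from 1.15 for *PRDX6* to 4.97 for *TXN*, with *PRDX1* at 3.41, *PRDX2* at 3.82 and *PRDX3* at 2.74, beside a median of 0.98 over all tested genes. Together the 9 genes took 0.160% of the counts of sgMTSS1_1 (Wilson 95% interval 0.157 to 0.162, counting error only) but 0.105% (0.102 to 0.108) in sgMTSS1_2 and 0.107% (0.104 to 0.110) in sgMTSS1_3. The sgCtrl libraries, at 0.116% (0.112 to 0.120) and 0.101% (0.0981 to 0.105), were close to sgMTSS1_2 and sgMTSS1_3. *SOD1* alone gave 8177 of the 14137 counts of the 9 genes in sgMTSS1_1, 3256 of 5710 in sgMTSS1_2 and 3742 of 6199 in sgMTSS1_3. It gave 1524 of 3300 in sgCtrl_1 and 2116 of 3456 in sgCtrl_2, so *SOD1* weighed most in each share. The sgMTSS1_1 library was also the deepest, at 8854899 counts, and had the largest share of counts from ribosomal protein genes, at 17.7% against 11.9% and 13.9% in the other knockout pools and 7.55% and 9.30% in sgCtrl_1 and sgCtrl_2. The part of depth and of this share in the redox genes' values was not tested. In the sgCtrl group, sgCtrl_1 exceeded sgCtrl_2 for 6 genes (*PRDX1*, *PRDX2*, *PRDX3*, *PRDX4*, *PRDX6* and *TXN*) and was below it for *PRDX5*, *TXNRD1* and *SOD1*.

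**Figure D3:**
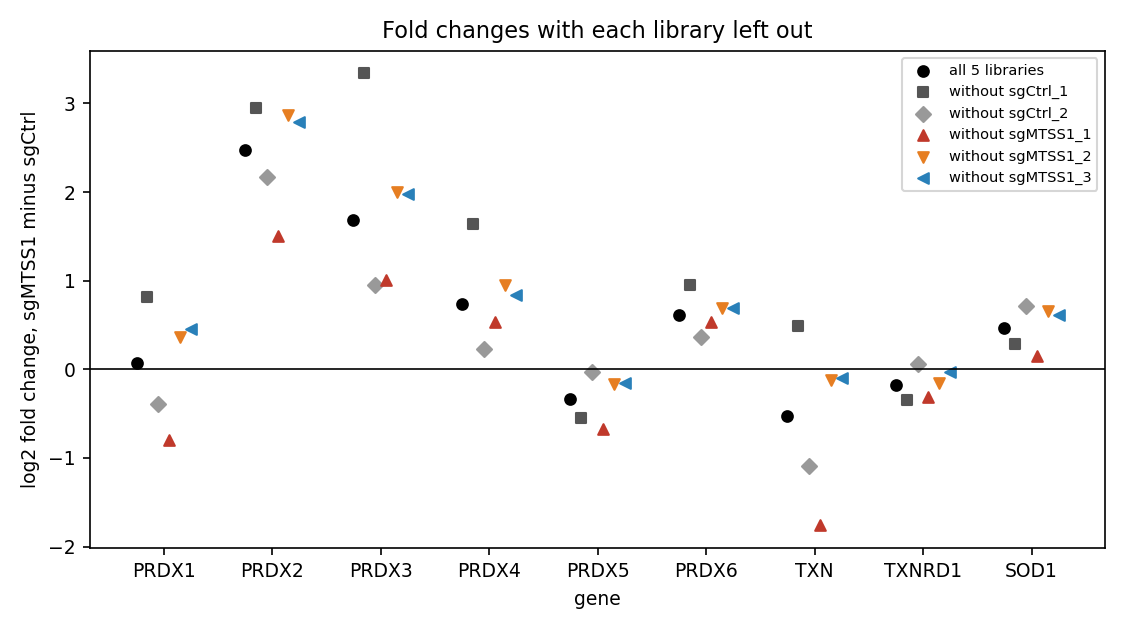
Log2-fold change of each redox gene with all 5 libraries and with each library left out in turn. The values of *TXN* run from −1.76 to 0.49 and those of *PRDX3* from 0.95 to 3.34, while *TXNRD1* stays between −0.35 and 0.06.

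Promoters in RefSeq (GRCh38.p14, from 250 bases before to 50 bases after an annotated start) were given for 6 of the 9 genes, in 8 windows. They were searched on both strands for the core of the antioxidant response element bound by NRF2, TGACNNNGC, which 13.3% of 35116 promoter windows hold, and for the GC box GGGCGG, which 45.0% hold. The 2 motifs do not overlap in these windows. The GC box was found in every window of *TXN*, *PRDX2*, *PRDX3*, *PRDX4*, *PRDX5* and *TXNRD1*, and the antioxidant response element core was found in those of *TXNRD1* alone. Promoters of *PRDX1*, *PRDX6* and *SOD1* were not given and were not searched for either motif. The bases before the start are shown for the 2 peroxiredoxins with the largest fold changes and for *PRDX5*, whose upstream neighbour is described below. They are also shown for *TXNRD1*, the only one of the 6 searched genes with the core. Capitals mark the GC box in the first 3 sequences (printed as CCGCCC where it lies on the other strand) and the antioxidant response element core in that of *TXNRD1*, where the capitals at the end are the part before the start of a match on the minus strand that ends on the start base. All are written 5′ to 3′ on the strand of the gene.
*PRDX2*, chr19:12801801-12802050, minus strand: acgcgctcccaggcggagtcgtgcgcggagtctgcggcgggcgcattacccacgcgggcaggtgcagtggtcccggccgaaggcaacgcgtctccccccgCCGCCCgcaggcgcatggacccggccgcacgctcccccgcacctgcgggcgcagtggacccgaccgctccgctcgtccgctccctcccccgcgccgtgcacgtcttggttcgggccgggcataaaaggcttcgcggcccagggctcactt
*PRDX3*, chr10:119178813-119179062, minus strand: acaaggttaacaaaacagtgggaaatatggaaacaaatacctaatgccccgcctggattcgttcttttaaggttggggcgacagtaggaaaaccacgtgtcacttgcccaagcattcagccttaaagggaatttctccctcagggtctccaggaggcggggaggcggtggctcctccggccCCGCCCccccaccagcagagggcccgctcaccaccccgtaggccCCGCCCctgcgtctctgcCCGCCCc
*PRDX5*, chr11:64317871-64318120, plus strand: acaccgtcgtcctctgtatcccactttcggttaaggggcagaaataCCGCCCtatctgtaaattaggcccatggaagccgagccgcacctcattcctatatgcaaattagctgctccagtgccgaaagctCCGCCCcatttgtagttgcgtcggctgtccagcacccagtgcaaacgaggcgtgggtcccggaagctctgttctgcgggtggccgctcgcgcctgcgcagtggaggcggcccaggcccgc
*TXNRD1*, chr12:104215529-104215778, plus strand: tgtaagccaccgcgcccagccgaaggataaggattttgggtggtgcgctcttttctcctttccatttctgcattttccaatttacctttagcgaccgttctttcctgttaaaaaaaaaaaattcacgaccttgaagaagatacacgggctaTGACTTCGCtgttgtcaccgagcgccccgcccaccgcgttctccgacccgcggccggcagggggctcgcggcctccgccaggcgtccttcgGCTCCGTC
The *PRDX2* window was 73.7% G and C and the *PRDX3* window 61.3%, against a median of 58.7% over all windows. A match describes the letters and not a bound site.

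Reads of these libraries come from the 3′ ends of transcripts and only uniquely mapped reads were kept, so the sequence of the last exon decides what can be counted. Among the 251 stretches of 50 bases (the read length) in the last 300 bases of each gene's canonical transcript, all occurred once in the genome or crossed an exon junction in 8 of the 9 genes, and 4 of 251 (1.59%) occurred at a second place for *PRDX3*. The end of *PRDX1* (chromosome 1, 45510914 to 45542732, minus strand) lies under exons of *MMACHC* on the opposite strand along all 300 bases. That of *PRDX2* (chromosome 19, 12796820 to 12801800, minus strand) lies for 200 of 300 bases under exons of the lncRNA ENSG00000267062 on the opposite strand, which has no row in the table. No other gene's exon covered the ends of the other 7 genes. It is not stated whether counting used the strand. Without strand the reads of such partners cannot be told apart, and they may have been mixed or dropped. Whether this lowered the counts of *PRDX1* or *PRDX2* was not tested. *MMACHC*, an enzyme of cobalamin metabolism, was at 22.8 and 32.2 CPM in sgCtrl and at 15.95, 23.5 and 19.5 CPM in sgMTSS1, with groups that overlapped (log2-fold change −0.49 ± 0.33 (SE), adjusted p = 0.416) and an order of libraries unlike that of *PRDX1*.

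Processed pseudogenes of *PRDX1*, *PRDX3*, *TXN* and *SOD1* had rows of their own. *PRDX1P1* (chromosome 9, 12972843 to 12973438) was counted 2 and 1 times in sgCtrl and 52, 23 and 17 times in sgMTSS1 (0.625 and 0.298 against 6.74, 4.15 and 2.96 CPM). It passed the test, with a log2-fold change of 3.28 ± 0.77 (SE) and an adjusted p of 0.0427, while *PRDX1* itself did not. It lost the call with any single library left out, at log2-fold changes between 2.87 and 3.88 and adjusted p between 0.0568 and 0.109, and also by limma-voom (2.94, adjusted p = 0.111) and with libraries thinned to the smallest total (3.81, adjusted p = 0.0544). Both control counts were under the floor of 3 counts, so the fitted fold change is imprecise. Summed over libraries, 92 counts stood against 3, a depth-corrected ratio of 10.6 (exact 95% interval 3.51 to 52.2, counting error only). *TXNP4* was counted 6 and 0 times in sgCtrl and 117, 0 and 5 times in sgMTSS1_1, sgMTSS1_2 and sgMTSS1_3, and *TXNP6* 3 and 2 times against 29, 0 and 2 times, so both had most of their reads in sgMTSS1_1, the deepest library, as *TXN* was highest there among the knockout pools. The other 5 pseudogenes (*PRDX3P1*, *PRDX3P2*, *TXNP5*, *SOD1P1* and *SOD1P3*) had at most 5 counts in any library. In the last 300 bases of *PRDX1*, *TXN* and *SOD1* every stretch of 50 bases occurred once in the genome. For *PRDX3* 4 of 251 stretches did not. Exact reads from the stretches that occur once can be told apart from those of a copy. Other reads of a near-identical copy can be assigned to either gene or dropped, so the split between a gene and its pseudogene remains uncertain for them. With the pseudogene counts joined to their parent genes the log2-fold changes were 0.43 for *PRDX1* (adjusted p = 0.700), −0.42 for *TXN* (0.776) and 1.66 for *PRDX3* (0.186), and no redox gene passed.

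Annotated neighbours within 5 kb included 2 protein-coding genes that rose beside redox genes that did not pass. *TRMT112*, the shared subunit of several methyltransferases, lies 561 bases from the start of *PRDX5* on the opposite strand, so both are transcribed away from the same stretch. It was at 8.13 and 1.79 CPM in sgCtrl and at 186, 81.4 and 98.8 CPM in sgMTSS1, a log2-fold change of 4.62 ± 0.65 (SE, adjusted p = 0.00984). *TRMT112* passed under all 14 alternatives in which it was tested. With 6 counts in sgCtrl_2 it was not tested when 10 counts were required in every library. *PRDX5*, from the other side of that stretch, had a log2-fold change of −0.33 (95% interval −1.12 to 0.46), which does not overlap with the interval of *TRMT112* (3.16 to 6.08). *JUNB*, an AP-1 transcription factor 3504 bases from *PRDX2*, was at 10.6 and 4.77 CPM in sgCtrl and at 35.3, 30.5 and 40.7 CPM in sgMTSS1 (log2-fold change 2.21 ± 0.41 (SE), adjusted p = 0.0215, or 0.0781 without sgMTSS1_1 and 0.0655 without sgMTSS1_3). Unlike *PRDX2*, *JUNB* was not highest in sgMTSS1_1. *SFXN4*, a mitochondrial carrier protein encoded 2005 bases from *PRDX3* on the same strand, was at 57.5 and 333 CPM in sgCtrl_1 and sgCtrl_2 and between 204 and 220 CPM in sgMTSS1 (log2-fold change 0.11, adjusted p = 0.929), so the controls differed by 5.79-fold in the direction opposite to *PRDX3*. Within *TXNRD1*, the ribosomal protein pseudogene *RPL18AP3* on the same strand was at 2.19 and 0.596 CPM in sgCtrl and at 17.3, 7.58 and 10.3 CPM in sgMTSS1 (log2-fold change 3.07 ± 0.65 (SE), adjusted p = 0.0307), whereas *TXNRD1* did not pass. *RPL18AP3* missed the threshold without sgMTSS1_1 (adjusted p = 0.106) or sgMTSS1_3 (0.0675), and by limma-voom (log2-fold change 3.11, adjusted p = 0.0650). It also missed the threshold without sgCtrl_2, at a log2-fold change of 2.44. *HOOK2*, which overlaps *PRDX2* on the same strand, had a log2-fold change of 0.02, *RNASEH2A* of −0.45, and *PRDX6-AS1*, antisense to *PRDX6*, of 0.16, and none of them passed. Beside *SOD1*, *SCAF4* (log2-fold change −0.47) and the antisense lncRNA ENSG00000273271 (−0.68) did not pass either, and *HMGB1P48*, *ESRRA*, ENSG00000236935, *EID3* and *SOD1-DT* had at most 8 counts in any library and were not tested.

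**Figure D4:**
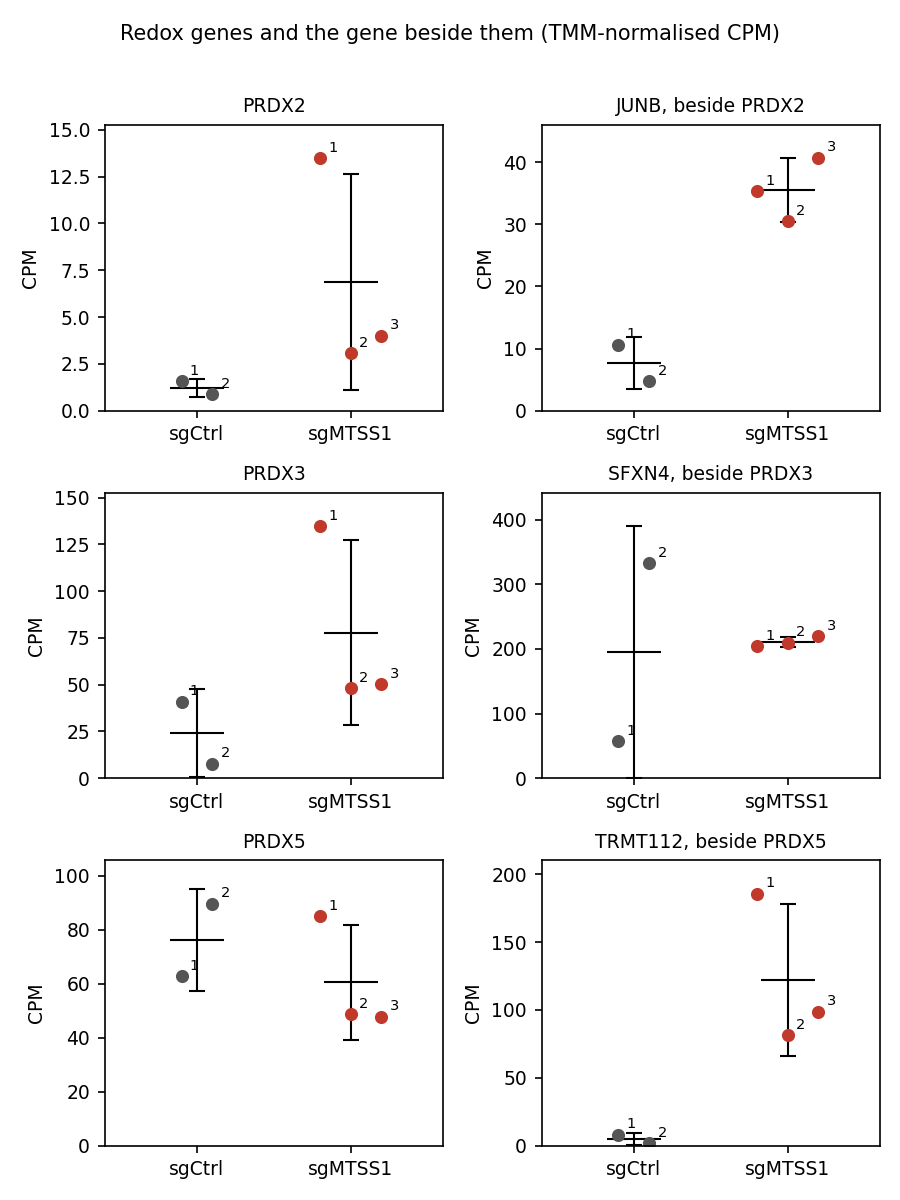
Level in each library, in CPM on a linear axis from 0 with group mean and SD (cut at 0), of *PRDX2*, *PRDX3* and *PRDX5* beside their neighbours *JUNB*, *SFXN4* and *TRMT112*. *TRMT112* and *JUNB* are higher in all sgMTSS1 libraries than in both sgCtrl libraries, while *PRDX5* and *SFXN4* overlap between groups.

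Other genes of the same pathways were taken from 6 lists. Of 18 tested thioredoxin-fold and reductase genes (20 listed), none passed by edgeR, DESeq2 or limma-voom, and the median log2-fold change was −0.06. An unadjusted p under 0.05 by edgeR was found for 4 of the 18, near the share of 23.3% over all tested genes. Values are given for the 3 with the smallest p, which did not share a sign. *TXNDC15*, a thioredoxin-domain protein, was at 14.7 and 14.3 CPM in sgCtrl against 37.4, 24.2 and 31.3 CPM in sgMTSS1 (log2-fold change 1.09, adjusted p = 0.0916). The mitochondrial thioredoxin reductase *TXNRD2*, at 9.07 and 8.34 against 3.89, 4.33 and 2.96 CPM, gave −1.22 (adjusted p = 0.120). *TMX2*, a thioredoxin-related membrane protein, gave −0.95 (adjusted p = 0.116).

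Of 8 tested accessory genes of peroxide and superoxide handling (12 listed), none passed by any of these tools. An unadjusted p under 0.05 by edgeR was found for 3 of the 8, against 23.3% of all tested genes. Of the methionine sulfoxide reductases, the mitochondrial *MSRB2* gave a log2-fold change of −1.24 (adjusted p = 0.103) and the selenoprotein *MSRB1* of 0.84 (adjusted p = 0.182), and the sestrin *SESN3* gave −0.72 (adjusted p = 0.184). *SOD3* and sulfiredoxin (*SRXN1*), which restores overoxidized peroxiredoxins, had no row and were not analysed here. Of 6 tested NADPH oxidase genes (12 listed), none passed by any tool and 3 had an unadjusted p under 0.05, against the same 23.3%. *CYBB*, the catalytic subunit of the phagocyte oxidase, was at 1.56 and 1.49 CPM in sgCtrl and at 3.76, 3.61 and 4.52 CPM in sgMTSS1 (log2-fold change 1.36, adjusted p = 0.172), and the GTPase *RAC1* had a log2-fold change of 0.75 (adjusted p = 0.198).

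In the remaining 3 lists, 5 genes rose and none fell. Higher calls made up 4.17% of all tested genes. Of 25 tested glutathione genes (29 listed) 3 rose, with a list median of −0.06. They were *GGCT*, which cleaves gamma-glutamyl dipeptides in glutathione breakdown, *MGST2*, a membrane-bound glutathione transferase, and *LANCL1*, a glutathione-binding protein. *GGCT* was at 27.8 and 15.2 CPM in sgCtrl and at 147, 91.2 and 87.2 CPM in sgMTSS1 (log2-fold change 2.34 ± 0.41 (SE), adjusted p = 0.0171). *MGST2* was at 17.8 and 8.34 CPM against 185, 42.1 and 73.8 CPM (2.94 ± 0.66, adjusted p = 0.0359), with sgMTSS1_1 far above the other knockout pools, as for *PRDX2*. *LANCL1* was at 10.005 and 7.75 CPM against 28.9, 29.2 and 22.3 CPM (1.59 ± 0.35, adjusted p = 0.0350).

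Of 13 tested NRF2 pathway genes (17 listed) 1 rose and the list median was −0.39. This was *MAFG*, a small Maf protein that pairs with NRF2 on DNA, at 10.3 and 14.3 CPM in sgCtrl and at 55.6, 30.9 and 50.6 CPM in sgMTSS1 (log2-fold change 1.89 ± 0.38 (SE), adjusted p = 0.0259). *NQO1*, a widely used NRF2 target, was at 15.9 and 6.85 CPM against 43.5, 19.3 and 26.3 CPM (1.39, adjusted p = 0.125), and *KEAP1*, which directs NRF2 to degradation, had a log2-fold change of 0.70 (adjusted p = 0.172). These 3 genes are named for their small p, and the list as a whole was mixed in sign. Fold changes were positive for 6 of the 13 genes and negative for 7, among them *GCLC* (log2 −0.55, adjusted p = 0.299) and *GCLM* (−0.41, adjusted p = 0.543). Of 15 tested genes of NADPH supply 1 rose, with a list median of 0.05. This was *TALDO1*, the transaldolase of the pentose phosphate pathway, at 47.5 and 20.9 CPM in sgCtrl and at 213, 140.5 and 167 CPM in sgMTSS1 (log2-fold change 2.34 ± 0.42 (SE), adjusted p = 0.0186). *PGLS*, the lactonase of the same pathway, had a log2-fold change of −0.91 (adjusted p = 0.0946) and the mitochondrial folate enzyme *MTHFD2* of 1.26 (adjusted p = 0.103). Without sgMTSS1_1, the 5 genes that rose kept log2-fold changes between 1.53 and 2.16 but none passed, with adjusted p between 0.0646 and 0.107, and 111 in place of 745 genes were called in all. *LANCL1* also missed the threshold without sgCtrl_2 (adjusted p = 0.0708), sgMTSS1_2 (0.0870) or sgMTSS1_3 (0.0767), with library totals alone (0.0566) and with libraries thinned to the smallest total (0.0652), *MGST2* without sgCtrl_2 (0.0941) or sgMTSS1_3 (0.0639) and *MAFG* without sgCtrl_1 (0.0501) or sgMTSS1_3 (0.0857), whereas *GGCT* and *TALDO1* passed with each of the other 4 libraries left out.

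**Figure D5:**
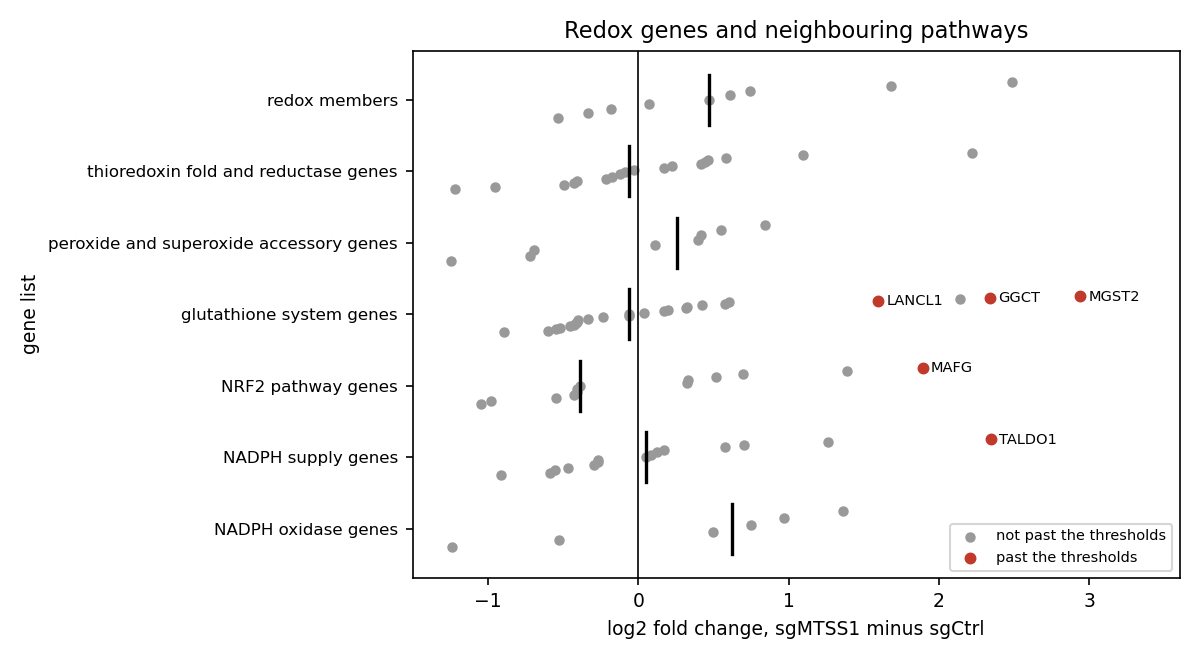
Log2-fold change of every tested gene in the redox gene group and the 6 pathway lists, with called genes in red and a black line at each list's median. Calls are *GGCT*, *MGST2* and *LANCL1* of the glutathione list, *MAFG* of the NRF2 list and *TALDO1* of the NADPH list, and the list medians lie between −0.39 and 0.62.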

How the data were processed

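RNA of the 5 pools was made into QuantSeq 3′ FWD libraries and sequenced as single-end reads of 50 bases. The authors trimmed adapters with BBDuk, aligned to GRCh38 with HISAT2 2.1.0, removed reads that were not uniquely mapped with SAMtools 1.10, and deposited raw counts per Ensembl gene. The counting program, annotation release, use of strand and handling of duplicates are not given in the sources used here. Libraries were grouped by their labels, and all 5 count columns were used.

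Counts were analysed with edgeR 4.0.16 in R 4.3.3 (filterByExpr at a minimum count of 10, TMM, quasi-likelihood test, group as the only term, Benjamini-Hochberg adjustment over 14391 genes). A gene was called at an adjusted p under 0.05 and a log2-fold change beyond 1 in either direction. CPM were computed from counts and TMM factors. Standard errors and 95% intervals follow from each gene's F statistic, and p-values test the difference between groups against the spread between pools within them. Names and positions are from GENCODE 44 (GRCh38), in which 27211 genes had a symbol, and promoters from RefSeq (GRCh38.p14). Alternatives were DESeq2 1.42.0 (DESeq2 was the tool of the study itself), limma-voom (limma 3.58.1), other factors and filters, thinning, a replicate block, and each library left out.

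Redox genes and lists were chosen with earlier results of these data known. Named are all redox genes, list genes with an adjusted p under 0.05 or, where fewer than 3 had one, up to the 3 with the smallest p, counted neighbours within 5 kb, pseudogenes, and the 5 genes nearest to *PRDX2* in pattern. *GCLC* and *GCLM* are named outside this rule. Among the list genes, 1 is not reported here.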

Additional observations from a re-analysis of the deposited data

How the results depend on the processing

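Limits are set by 2 and 3 libraries a group, by sgCtrl libraries shallower than every sgMTSS1 library, and for *PRDX2* by 3 to 5 control counts, too few for it to be tested when 10 counts were required in every library. Of all genes, 1357 were called by DESeq2, 1374 of 27328 with no filter, and 111 to 1349 with 1 library left out, against 745 (111 without sgMTSS1_1, 191 without sgMTSS1_3, 347 without sgMTSS1_2, 790 without sgCtrl_2, 1349 without sgCtrl_1). Of the redox genes, 1 was called by DESeq2 (*PRDX2*, adjusted p = 0.047), 2 with no filter (*PRDX2*, 0.0294, and *PRDX3*, 0.0418) and 0 to 2 with 1 library left out. Of the pathway lists, 7 genes were called by DESeq2, 8 with no filter and 0 to 4 with 1 sgMTSS1 library left out, against 5 (4 with library totals alone or thinned libraries). More list genes than in the main fit were called without sgCtrl_1, and as many without sgCtrl_2. The sign of *PRDX1* turned with limma-voom (−0.04), library totals alone (−0.15), upper-quartile factors (−0.02), without sgCtrl_2 (−0.39) and without sgMTSS1_1 (−0.80), that of *TXN* without sgCtrl_1 (0.49) and that of *TXNRD1* without sgCtrl_2 (0.06). With 1 library left out, their log2-fold changes ran from −0.80 to 0.82 (*PRDX1*), −1.76 to 0.49 (*TXN*) and −0.35 to 0.06 (*TXNRD1*). A fit without 1 sgCtrl library assumes that the other varies like the sgMTSS1 pools. Library totals alone moved the median of all genes from −0.03 to −0.17. The cause of these moves was not tested.

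A replicate block for the pool number, which 2 numbers of the groups share, called 1094 genes, 2 redox genes (*PRDX2*, log2-fold change 2.56, adjusted p = 0.0323, and *PRDX3*, 2.14, adjusted p = 0.000795) and 8 list genes. Deviations of same-numbered libraries from their group means correlated at r = 0.196 and 0.108 across genes, which are not independent replicates, and with 2 pairs and no source that ties the pools, the numbers were not taken as pairs. Under the other alternatives, chosen after the data were seen where counts were joined with pseudogenes and for the pathway lists, the redox genes gave no call.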

Other observations

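The genes whose pattern over the 5 libraries was closest to that of *PRDX2*, the redox gene with the largest fold change, were *EEF1B2P2*, *OST4*, *S100A6*, *RPL34P18* and *COMMD6*, at Euclidean distances of 0.292 to 0.442 between centred log2 CPM values, against a median distance of 2.75 over the other 14390 tested genes. *EEF1B2P2* and *RPL34P18* are processed pseudogenes of translation genes, *OST4* is a small subunit of the oligosaccharyltransferase, *S100A6* a calcium-binding protein and *COMMD6* a COMM domain protein. *S100A6* was at 134 and 95.7 CPM in sgCtrl and at 849, 282 and 280.1 CPM in sgMTSS1_1, sgMTSS1_2 and sgMTSS1_3 (log2-fold change 2.03 ± 0.54 (SE), adjusted p = 0.0607). Since these genes were picked for their likeness to *PRDX2*, their high value in sgMTSS1_1 follows from the choice. None of the 5 passed the test, with adjusted p between 0.0556 and 0.119.

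The snoRNA ENSG00000238390, which lies within *SOD1* on the same strand, was at 17.2 and 11.3 CPM in sgCtrl and at 4.80, 5.78 and 4.87 CPM in sgMTSS1 (log2-fold change −1.47 ± 0.38 (SE), adjusted p = 0.0556), while *SOD1* had a positive fold change.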
